A study of Mus musculus with 8 samples.

Results

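The TGF-beta and BMP pathway genes described here are 45 genes chosen by symbol, from ligands to antagonists, out of 54418 genes measured in melanocyte stem cells. All 45 were found, each as 1 gene. RNA was sequenced from live, non-autofluorescent cells of mouse back skin at postnatal day 21, sorted for GFP made under Dct, a gene of melanin synthesis. Control mice (n = 4 libraries) had the genotype Bmi1fl/fl with Dct-rtTA and TRE-H2B-GFP, and Bmi1-deleted mice (n = 4) carried the same alleles and Tyrosinase-Cre. All mice were on a mixed C57Bl-6;129Sv background and were fed doxycycline, which switches on the histone-GFP reporter through rtTA. Cre is driven by the promoter of tyrosinase, a pigment cell gene. Whether cells of another lineage caught in the sort kept or lost Bmi1 was not tested. The labels do not tie each replicate to an animal of its own, and the p-values therefore reflect the spread between libraries, which may be technical.

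TGF-beta is secreted bound to a latency peptide and a latent TGF-beta binding protein, and must be released before it can bind its type II receptor, which then activates a type I receptor. TGF-beta and activin receptors phosphorylate SMAD2 and SMAD3, BMP receptors phosphorylate SMAD1, SMAD5 and SMAD9, and both groups enter the nucleus with SMAD4. Inhibitory SMADs, the co-repressors Ski and Skil and secreted traps such as noggin and follistatin limit the signal. TGF-beta is known as a signal of the hair follicle that holds melanocyte stem cells in quiescence, and BMP signalling is known to restrain hair follicle stem cells and to act on pigment cells. BMI1 is a subunit of a Polycomb repressive complex, which keeps developmental genes silent.

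The letters of 3 promoters are shown because 2 of the genes, Id2 and Id3, are transcribed readouts of BMP signalling and the third, Tgfb2, is a ligand whose levels did not overlap between the groups. Each run is the 250 bases that end 1 base before the start of the RefSeq transcript, 5′ to 3′ on the gene's strand, in build GRCm38.p6. Capitals mark GGCGCC, a GC-rich motif bound by SMADs in BMP target genes (a palindrome, the same on both strands), and CAGAC or its reverse complement GTCTG, the short SMAD motif. The runs lie at chr12:25096093-25096342 on the minus strand for Id2, chr4:136143572-136143821 on the plus strand for Id3 and chr1:186705990-186706239 on the minus strand for Tgfb2.
Id2: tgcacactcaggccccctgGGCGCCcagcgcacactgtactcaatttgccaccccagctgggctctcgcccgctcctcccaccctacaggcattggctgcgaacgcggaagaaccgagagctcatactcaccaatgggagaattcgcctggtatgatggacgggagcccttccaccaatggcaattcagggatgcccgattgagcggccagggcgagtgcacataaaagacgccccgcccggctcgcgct
Id3: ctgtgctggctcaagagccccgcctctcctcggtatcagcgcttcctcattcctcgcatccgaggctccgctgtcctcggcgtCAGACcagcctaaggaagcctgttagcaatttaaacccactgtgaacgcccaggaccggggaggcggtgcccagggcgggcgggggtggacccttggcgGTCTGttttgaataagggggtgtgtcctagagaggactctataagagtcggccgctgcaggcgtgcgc
Tgfb2: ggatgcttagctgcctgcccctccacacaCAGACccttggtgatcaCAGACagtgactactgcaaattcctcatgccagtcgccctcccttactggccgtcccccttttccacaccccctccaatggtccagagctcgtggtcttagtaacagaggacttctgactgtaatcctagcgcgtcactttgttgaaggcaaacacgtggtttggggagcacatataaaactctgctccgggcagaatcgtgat
The Id2 run held 1 GGCGCC and 0 CAGAC, the Id3 run held 0 GGCGCC and 2 CAGAC, and the Tgfb2 run held 0 GGCGCC and 2 CAGAC. RefSeq windows were at hand for 33 of the 45 genes, 41 windows in all. GGCGCC stood in 13 of them (31.7%) and in 9.59% of all 32851 windows of this length, and CAGAC stood in 18 (43.9%) and in 42.2% of all windows. Some genes have more than 1 window, the base composition of the windows was not matched, and a match describes the letters only.

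Across the 45 genes, none of the 42 genes with enough counts to test passed edgeR's quasi-likelihood test at a Benjamini-Hochberg adjusted p under 0.05. The smallest p was that of Tgfbr3, the co-receptor betaglycan, whose level was higher in every Bmi1-deleted library and which passed when the replicate number was added as a block. Tgfb2 was also higher in every Bmi1-deleted library, and Bmp2 lower. The BMP readouts Id1, Id2, Id3 and Id4 had log2 changes between −0.06 and 0.11, and between −0.39 (Id3) and 0.32 (Id4) with a score of fibroblast markers as a term, in which none passed. With the block as well, their changes ran from −0.54 (Id3) to 0.40 (Id2), and again none passed.

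In numbers, 0 of 42 genes rose and 0 fell, beside 0.0937% of all 16011 genes tested (0.0874% higher, 0.00625% lower). An unadjusted p under 0.05 was reached by 6 genes (14.3%, 4 higher and 2 lower) and by 8.27% of all genes (4.82% higher, 3.45% lower). With the replicate block 1 gene rose (Tgfbr3, 2.38% of 42) and 0 fell, against 2.41% of all genes (1.71% higher and 0.706% lower), and with DESeq2 1 rose (Tgfbr3) and 0 fell, against 1.03% of all genes (0.715% higher, 0.312% lower). Without the low-count filter 2 rose (Tgfbr3 and Ltbp4, the latter with an adjusted p of 0.0279) and 0 fell, against 1.09% (0.741% higher, 0.346% lower). The log2 change was positive for 21 genes and negative for 21, with a median of −0.01 beside 0.01 over all genes. The median size of a log2 change, sign left aside, was 0.20 for the 42 genes and 0.23 for all genes. A size of at least 0.5 was reached by 12 of the 42 (28.6%) and by 23.1% of all genes. The groups did not overlap in 3 of the 42 (7.14%), against 5.18% of all genes (2.79% higher, 2.39% lower). Comparing libraries of the same replicate number, 7 genes were higher in the Bmi1-deleted library of all 4 pairs (Tgfb1, Tgfb2, Bmp6, Ltbp4, Tgfbr3, Ski and Fst), and 5 were lower in all 4 (Bmp2, Bmp7, Bmpr1a, Bmpr2 and Smad5). Over all genes these shares were 11.0% and 9.51%.

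**Figure D1:**
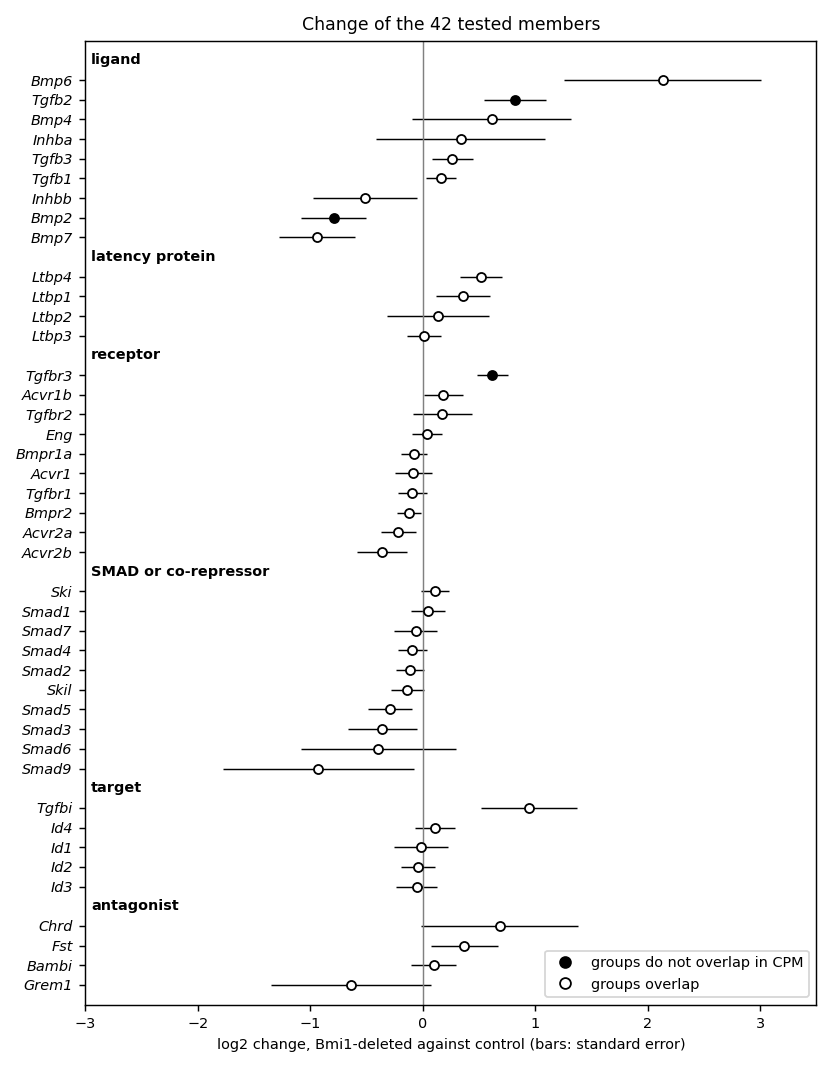
Log2 change of Bmi1-deleted against control (horizontal axis) for each of the 42 genes tested, grouped by role, with bars of 1 standard error and filled points where the groups did not overlap. Most points lie near 0, 21 to each side, and Tgfbr3 has the smallest adjusted p (0.116 by edgeR's quasi-likelihood test).

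Bmi1 itself, on chromosome 2 at 18677018 to 18686629 (mm10), had 84.6, 76.5, 75.4 and 97.2 CPM (the share of each library's counts, put on a common scale by TMM) in control libraries 1 to 4, and 69.2, 70.8, 69.6 and 68.8 after Bmi1 deletion. The groups did not overlap, and the log2 change was −0.26 with an edgeR adjusted p of 0.607. On rescaled TPM, Bmi1 was at 178, 134, 142 and 184 in control and 84.4, 115, 69.1 and 56.3 in Bmi1-deleted libraries, a larger log2 change of −1.01 (limma adjusted p 0.384). The labels do not name the exons that Cre removes, and counts of the whole gene cannot show their loss. The libraries held 8882656 to 10368174 counts, which sets the floor of 3 counts at 0.298 to 0.340 CPM.

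Markers of other cell types were present in the sorted cells. In the edgeR test without a block 0 markers of the lists passed, while with the replicate block 8 melanocyte markers fell, and 6 fibroblast, 4 Schwann cell and 1 keratinocyte markers rose. All 10 melanocyte markers, Dct among them, were detected in all 8 libraries. Their summed level was 9600 to 15671 CPM in control and 5472 to 11120 in Bmi1-deleted libraries, with 1 of 10 log2 changes positive. Of the fibroblast markers, 12 of 13 tested had positive log2 changes (median 0.86). All 15 summed to 5307 to 9130 CPM in controls, against 8994 to 18999 after Bmi1 deletion. Collagens made up most of this sum, Col3a1 alone averaging 2748 CPM in controls, while Pdgfra and Lum averaged 3.10 and 3.40. In replicates 3 and 4 the mean of Col3a1 was 2222 CPM in controls and 4178 after deletion. Pdgfra (2.59 and 1.73), Prrx1 (3.94 and 2.13), Lum (3.18 and 3.17) and Fbln1 (37.5 and 17.9) did not rise there. Thy1 (2.01 and 3.25) and Dpt (0.271 and 3.07) did, as did Pdgfra, Prrx1 and Lum in replicates 1 and 2. The 7 Schwann cell markers (7 positive, median 0.52) summed to 2070 to 3621 and 3699 to 4889 CPM, without overlap. Keratinocyte markers (7 of 10 positive) summed to 1386 to 1626 and 971 to 2454 CPM. Endothelial markers summed to 15.6 to 35.8 and 23.0 to 94.2 CPM, immune markers to 32.9 to 47.3 and 41.4 to 83.3, and smooth muscle or pericyte markers to 43.7 to 77.1 and 45.6 to 204. Of the marker lists, Mfap5, Twist2, Emcn, Cd52, Tyrobp, Cd3e and Rgs5 were at 0 in some libraries and none was at 0 in all. In bulk RNA a change in the number of cells of a type and a change in RNA per cell cannot be told apart, and the part of these cells in the results was tested only by a fit with a fibroblast score as a further term, given where it applies.

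**Figure D2:**
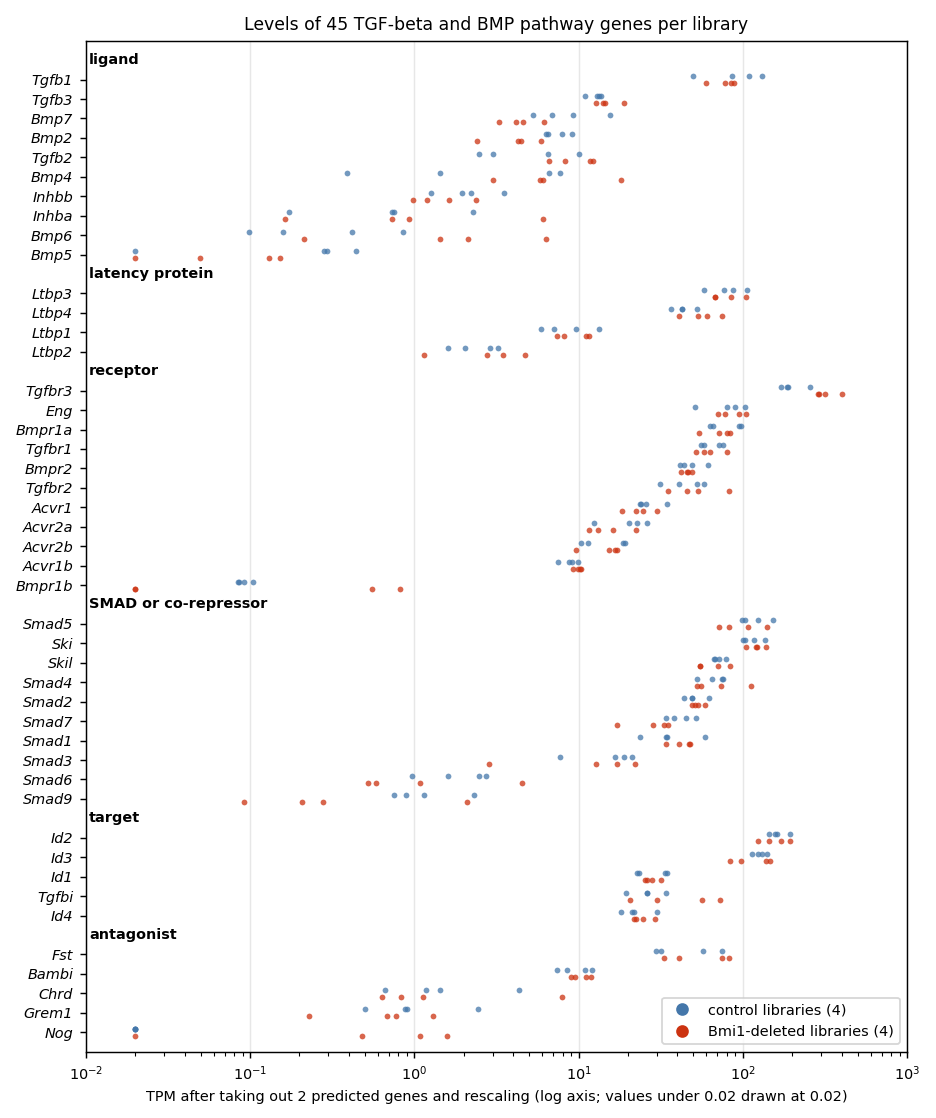
Level per length of the pathway genes by role, as TPM after leaving out 2 predicted genes and rescaling (horizontal axis, log scale), with 1 point per library in control and Bmi1-deleted cells. Tgfbr3 stands highest, at 201 ± 38.9 in control and 324 ± 52.0 in Bmi1-deleted libraries (mean ± SD, n = 4).

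Between genes, levels are compared here per length, as TPM (length-normalised transcript shares) after leaving out Gm23935 and CT010467.1. These 2 predicted genes took 2.62% to 5.46% of the counts of a library, and Gm23935 alone 73.7% to 85.6% of its TPM. In control libraries the highest of the 45 genes was Tgfbr3, followed by Id2 (164 ± 21.3 TPM, SD, n = 4), Id3 (127 ± 11.8), Smad5 (120 ± 24.6), Ski (114 ± 16.2) and Tgfb1 (93.9 ± 34.7). Control libraries of Id2 lay above those of Id3 without overlap, while every other pair of neighbours in this order overlapped. Tgfbr3 exceeded the type II receptor Tgfbr2 by 3.54 to 8.28 times and the type I receptor Tgfbr1 by 2.47 to 6.31 times, depending on the library.

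Of the ligands, 9 of 10 were tested, with 6 positive and 3 negative log2 changes (median 0.26). All 3 TGF-beta ligands had positive changes in the counts, while that of Tgfb1 was negative on the deposited log2 TPM (−0.27, relative to the shift of all genes) and on rescaled TPM (−0.20). Tgfb1, the ligand with the highest level, had 44.4, 39.0, 37.6 and 42.4 CPM in control and 46.6, 45.1, 44.3 and 46.8 in Bmi1-deleted libraries. The groups overlapped, since control library 1 lay above Bmi1-deleted library 3, and the log2 change was 0.16 (standard error 0.14, edgeR adjusted p 0.848). Per length Tgfb1 exceeded Tgfb2 by 6.61 to 36.3 times in the 8 libraries.

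Tgfb2 (chromosome 1, 186622792 to 186705989, minus strand) had 7.33, 8.96, 17.3 and 15.3 CPM in control and 19.97, 20.5, 20.2 and 25.6 in Bmi1-deleted libraries. Every Bmi1-deleted library lay above every control library, and control libraries 1 and 2 were lower than 3 and 4. The means were 12.2 ± 4.83 and 21.6 ± 2.71 CPM (SD, n = 4), a log2 change of 0.82 (standard error 0.28) with an edgeR adjusted p of 0.417, or 0.0810 with the replicate block. With the fibroblast score as a term the change was 1.16 (adjusted p 0.230), and with the block as well 0.50 (adjusted p 0.751). The fold within pairs was 2.72 and 2.28 in replicates 1 and 2 and 1.17 and 1.68 in replicates 3 and 4. On the rescaled TPM scale the groups overlapped (5.51 ± 3.51 and 9.74 ± 2.71), control library 3 reaching 10.1. Gm26169 and Gm29491 lie on the opposite strand within the Tgfb2 span, and whether the counting used strand is not stated in the labels. Tgfb3 had a log2 change of 0.26 (adjusted p 0.794).

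BMP ligands had changes of either sign. Bmp2 (chromosome 2, 133552159 to 133562885, plus strand) had 13.2, 18.5, 13.5 and 16.7 CPM in control and 12.2, 9.04, 9.34 and 5.10 in Bmi1-deleted libraries. Control libraries were all higher, with Bmi1-deleted library 1 nearest to them. The means were 15.5 ± 2.60 and 8.93 ± 2.93 CPM, a log2 change of −0.79 (standard error 0.29) with an edgeR adjusted p of 0.474, or 0.222 with the replicate block. With the fibroblast score as a term the change was −1.32 (adjusted p 0.196), and with the block as well −1.80 (adjusted p 0.143).

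Bmp7, Bmp6 and Ltbp4 are named because their unadjusted p was under 0.05, a choice made after their values were seen. Bmp7 (chromosome 2, 172868012 to 172940321) had 11.1, 19.3, 13.2 and 32.5 CPM in control and 6.95, 13.5, 9.01 and 9.98 in Bmi1-deleted libraries. The groups overlapped, and control library 4 was the highest of the 8. Its log2 change was −0.94 (standard error 0.34, edgeR adjusted p 0.468). Bmp6 (chromosome 13, 38345107 to 38500302) rested on few counts, 8, 17, 2 and 3 in control and 40, 31, 55 and 4 in Bmi1-deleted libraries, with a log2 change of 2.13 (standard error 0.87, adjusted p 0.544), or 0.86 with the fibroblast score as a term. Bmi1-deleted library 4 lay among the controls. Bmp4 was at 4.55 ± 4.06 and 6.96 ± 3.15 CPM, and the activin subunits Inhba and Inhbb at 0.667 to 8.61 CPM over the 8 libraries. The log2 change of Bmp4 was 0.61, or −0.37 with the fibroblast score as a term and 2.98 with the block as well (adjusted p 0.215). Bmp5 was not tested, with 6, 9, 0 and 6 counts in control and 1, 3, 3 and 0 in Bmi1-deleted libraries.

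**Figure D3:**
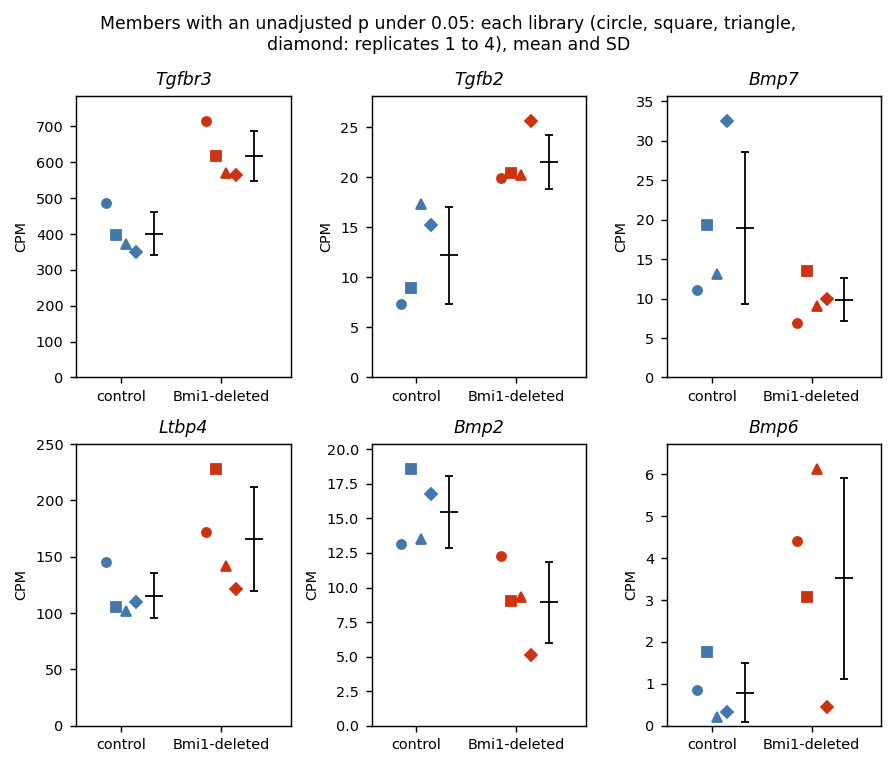
CPM by library (points) with the mean and SD of each group for the 6 pathway genes with an unadjusted p under 0.05. Tgfbr3 and Tgfb2 were higher, and Bmp2 lower, in each Bmi1-deleted library than in each control library.

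All 4 latent TGF-beta binding proteins, which tether latent TGF-beta to the matrix, had positive log2 changes in the counts (median 0.25), with Ltbp3 near 0 and negative on both TPM scales. Ltbp3, the one with the highest level per length, was at 167, 106, 133 and 166 CPM in control and 135, 159, 154 and 127 in Bmi1-deleted libraries. The groups overlapped, with a log2 change of 0.01 (adjusted p 0.995). Ltbp4 (chromosome 7, 27305136 to 27337692) had 145, 105, 102 and 109 CPM in control and 172, 227, 142 and 121 in Bmi1-deleted libraries. Its groups overlapped through control library 1, and the log2 change was 0.52 (standard error 0.19, edgeR adjusted p 0.468). The fit with the fibroblast score as a term gave 0.15 for Ltbp4, and that with the block as well 0.30 (adjusted p 0.768).

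The 10 tested of 11 receptors had 4 positive and 6 negative log2 changes (median −0.08). Tgfbr3 (chromosome 5, 107106570 to 107289629, minus strand) encodes betaglycan, which presents TGF-beta to the signalling receptors and binds inhibin. It had 485, 399, 373 and 349 CPM in control and 714, 618, 570 and 564 in Bmi1-deleted libraries. The lowest Bmi1-deleted library lay above the highest control library, and library 1 was the highest of each group. The fold within pairs was 1.47, 1.55, 1.53 and 1.62. The means were 401 ± 59.6 and 617 ± 69.5 CPM (SD, n = 4), a log2 change of 0.62 (standard error 0.13) that edgeR's test put at an adjusted p of 0.116.

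With the replicate block Tgfbr3 rose, at 0.62 with an adjusted p of 0.00167, and DESeq2 gave 0.00242. Without control library 1 the log2 change was 0.73 and the adjusted p 0.0466, the lowest of the 8 fits with 1 library left out, in which it reached 0.398. Replicates 1 and 2 alone gave 0.59 and replicates 3 and 4 alone 0.63. With the fibroblast score as a term the log2 change was 0.43 (adjusted p 0.283), and with the block as well 0.70 (adjusted p 0.0619). Fibroblast and Schwann cell markers were higher with it, as given above, and their part in the level of Tgfbr3 was not tested beyond these fits. Several predicted genes overlap its span, Gm8145 on the opposite strand and Gm43423, Gm43422 and Gm42900 on the same strand.

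**Figure D4:**
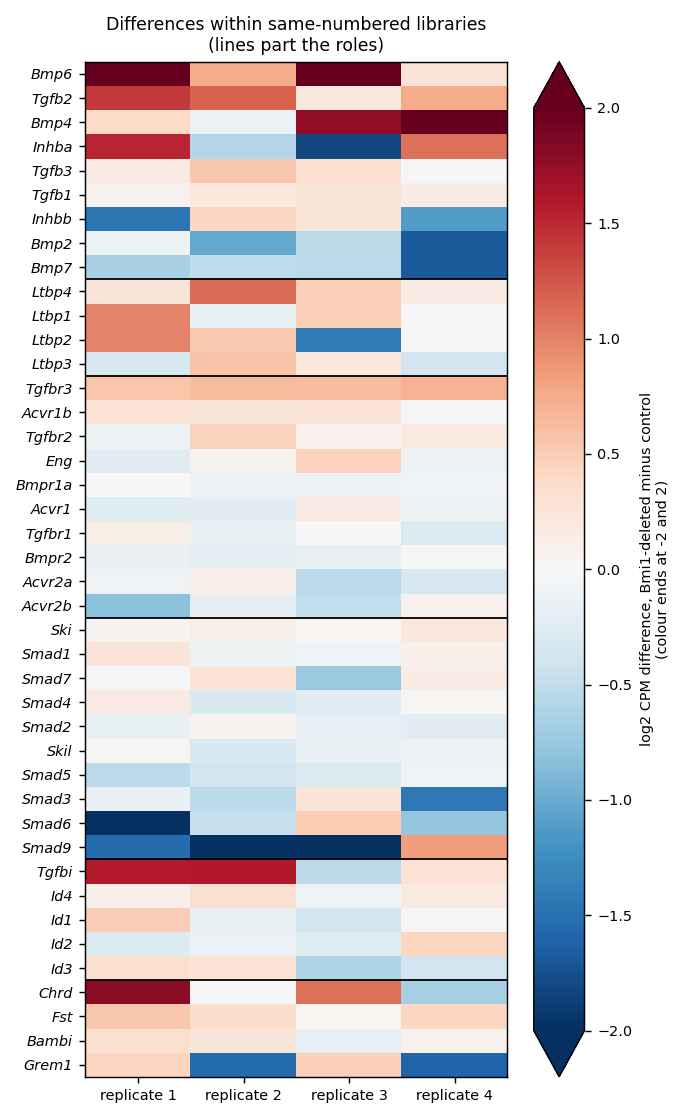
Log2 difference of Bmi1-deleted minus control within each pair of libraries of the same replicate number (colour, columns by replicate) for the pathway genes (rows, by role). Tgfbr3 is positive in all 4 pairs, with pair folds of 1.47 to 1.62.

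None of the other receptors passed any of the fits run on all 8 libraries. The type I and II TGF-beta receptors Tgfbr1 (102 ± 14.4 and 95.6 ± 4.88 CPM) and Tgfbr2 (115 ± 31.3 and 130 ± 46.0 CPM), and the co-receptor Eng (122 ± 18.2 and 126 ± 12.4 CPM), had log2 changes of −0.09, 0.17 and 0.04. The BMP receptors Bmpr1a and Bmpr2 had log2 changes of −0.08 and −0.12, with adjusted p-values of 0.931 and 0.859. Both were lower in all 4 pairs, but Bmpr1a was near level in pair 1 (log2 difference −0.0020) and Bmpr2 in pair 4 (−0.0095). Among activin receptors the changes ran from −0.36 for Acvr2b to 0.18 for Acvr1b. Bmpr1a exceeded the type I receptor Acvr1 by 2.45 to 4.09 times per length. Bmpr1b was not tested, with 1, 2, 2 and 1 counts in control and 13, 6, 0 and 0 in Bmi1-deleted libraries.

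SMADs and their co-repressors had 8 negative and 2 positive log2 changes among 10, all tested, with a median of −0.12 and a range of −0.93 to 0.10. On TPM scales the changes of Smad2, Smad4 and Smad6 were positive in 1 or both tables. On rescaled TPM Smad6, at −0.40 in the counts, was at −0.64. Smad7, at −0.06 in the counts, was there at −0.61 (limma adjusted p 0.650). With the fibroblast score as a term the changes of Smad4, Smad5, Smad7, Smad9 and Skil were positive. With the block as well, Smad4 (−0.11), Smad5 (−0.053) and Skil (−0.17) were negative, and Smad7 (0.023) and Smad9 (0.40) positive. Smad5, a BMP SMAD and the highest of them per length, had 217, 226, 282 and 312 CPM in control and 151, 173, 230 and 294 in Bmi1-deleted libraries. In both groups libraries 3 and 4 were the higher ones, and the groups overlapped. Its log2 change was −0.29 (standard error 0.20, adjusted p 0.797), negative in all 4 pairs, and 0.16 in the fit with the fibroblast score as a term. Smad5 exceeded Smad1 by 1.51 to 5.24 times per length.

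Smad9, the third BMP SMAD, had 2.34, 2.78, 7.60 and 3.73 CPM in control and 0.66, 0.30, 0.89 and 6.80 in Bmi1-deleted libraries, chosen for its size of change after the values were seen. Its log2 change of −0.93 (adjusted p 0.868) was positive, 0.12, in the fit with the fibroblast score as a term. Smad2, Smad3, Smad4 and the inhibitory Smad6 and Smad7 had changes between −0.40 and −0.06, with adjusted p-values from 0.851 to 0.975. Smad3, at −0.36, was at −1.11 with the fibroblast score as a term (adjusted p 0.186) and at −1.30 with the block as well (adjusted p 0.215). The co-repressors Ski (374 ± 43.3 and 402 ± 42.9 CPM) and Skil (162 ± 27.0 and 148 ± 20.8 CPM) had log2 changes of 0.10 and −0.14.

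The 5 targets were tested in full, with 2 positive and 3 negative changes. Id2, an inhibitor of DNA binding whose promoter is printed above, had 99.7, 101, 130 and 94.7 CPM in control and 82.4, 93.9, 110 and 127 in Bmi1-deleted libraries. The groups overlapped, with a log2 change of −0.04 (standard error 0.15, adjusted p 0.981). Id3 had 68.2, 58.3, 68.7 and 68.2 CPM in control and 85.6, 70.8, 44.5 and 52.5 in Bmi1-deleted libraries, the first 2 above all controls and the others below all of them. Its log2 change was 0.31 in replicates 1 and 2 alone and −0.52 in replicates 3 and 4 alone (adjusted p 0.607 and 0.431). Id1 was at 13.5 ± 3.05 and 13.3 ± 0.88 CPM and Id4 at 51.5 ± 12.7 and 55.5 ± 7.47. Per length, Id2 exceeded Id1 by 3.91 to 7.61 times.

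Tgfbi, a matrix protein induced by TGF-beta (chromosome 13, 56609523 to 56639562), is named after its values were seen. It had 34.3, 27.9, 41.5 and 25.6 CPM in control and 103, 85.2, 28.7 and 31.3 in Bmi1-deleted libraries. Bmi1-deleted libraries 1 and 2 were high, and 3 and 4 lay among the controls. The log2 change over all libraries was 0.94 (standard error 0.43, adjusted p 0.618). Replicates 1 and 2 alone gave 1.60, with means of 31.1 and 94.2 CPM and an adjusted p of 0.00245 by edgeR, while replicates 3 and 4 had means of 33.5 and 30.0 CPM. In replicates 1 and 2 alone Tgfbi was the 1 gene of the 45 that passed, against 0.94% of all genes (0.5% higher, 0.44% lower), and in replicates 3 and 4 alone 0 passed, against 0.103% (0.0665% higher, 0.0363% lower). The same Bmi1-deleted libraries 1 and 2 had the highest summed fibroblast markers of the 8 libraries (18999 and 15875 CPM), and also the highest keratinocyte (2454 and 2140), endothelial (94.2 and 50.2), immune (83.3 and 68.6) and smooth muscle or pericyte sums (204 and 84.7). Bmi1-deleted libraries 1 and 2 also had the highest Schwann cell sums (4352 and 4889 CPM) and the lowest melanocyte sums (5852 and 5472 CPM). Keratinocyte sums were 971 and 1172 CPM in Bmi1-deleted libraries 3 and 4, below all controls. The part of each of these cell types in the level of Tgfbi was not tested. With the fibroblast score as a term the change was −0.03. That score was highest in the same Bmi1-deleted libraries 1 and 2 (1.13 and 0.76), and at most 0.18 in the others. The fit therefore cannot tell fibroblasts apart from the other cell types.

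Of the antagonists, 4 of 5 were tested (3 positive, 1 negative). Fst encodes follistatin, a trap for activins, and was the highest per length. Fst had 54.5, 60.5, 35.8 and 31.2 CPM in control and 79.6, 76.9, 36.8 and 41.6 in Bmi1-deleted libraries. Libraries 1 and 2 were higher than 3 and 4 in both groups, and the log2 change was 0.37 (adjusted p 0.841). The change was −0.26 with the fibroblast score as a term, and 0.29 with the block as well (adjusted p 0.766). Bambi, a pseudoreceptor, had 29.5 ± 7.45 and 31.5 ± 4.13 CPM. The BMP traps Grem1 (2.86 ± 2.07 and 1.83 ± 1.09 CPM) and Chrd (1.55 ± 0.853 and 2.50 ± 1.55 CPM) had log2 changes of −0.64 and 0.68.

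Noggin, the BMP trap encoded by Nog (chromosome 11, 89300638 to 89302332), had 0 counts in all 4 control libraries, and Bmi1-deleted libraries 1 to 4 had 0, 15, 9 and 4. With the low-count filter Nog was not tested because its counts were too low, and a count of 0 allows up to 3 counts in a library. It is described because it was the only one of the 45 with 0 counts in every library of a group.

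A further 75 genes of the pathway, listed by role, were counted the same way, of which 57 were tested. By edgeR 0 rose and 0 fell, 10 had an unadjusted p under 0.05 (17.5%, all higher, against 4.82% of all genes higher), and the groups did not overlap in 4 (7.02%, all higher, against 2.79%): Sostdc1, Bmp1, Cdkn1a and Gdf15. With the replicate block 6 rose (Itgb8, Bmp1, Fbn1, Sostdc1, Ccn1 and Cdkn1a) and 1 fell (Runx3), together 12.3% of 57 against 2.41% of all genes. DESeq2 called 3 higher (Bmp1, Sostdc1 and Cdkn1a), against 0.715% of all genes. These lists were chosen with earlier results of these data known, so the shares are a description and not a test.

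The list of genes that release or handle latent TGF-beta had 10 positive changes of 11 and a median log2 change of 0.41. Bmp1, a protease that cleaves latent TGF-beta binding protein and procollagens, had 98.5, 64.2, 86.1 and 62.2 CPM in control and 111, 127, 138 and 122 in Bmi1-deleted libraries. Its groups did not overlap, with a log2 change of 0.68 (adjusted p 0.141, or 0.0103 with the block). Itgb8, the integrin chain that activates latent TGF-beta, had 433, 373, 307 and 237 CPM and 566, 500, 404 and 325, higher in all 4 pairs, with a log2 change of 0.41 (adjusted p 0.639, or 0.0202 with the block). Its change was −0.04 in the fit with the fibroblast score as a term, and 0.46 with the block as well (adjusted p 0.253). Fbn1, a fibrillin whose adjusted p with the block was 0.0147, had −0.03 and 0.33 in these fits. Itgav, the integrin partner of Itgb8 and the highest of the list per length, had 452, 509, 377 and 347 CPM in control and 537, 574, 465 and 402 in Bmi1-deleted libraries, with a change of 0.23 (adjusted p 0.772).

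Sostdc1, a secreted BMP and Wnt antagonist of the follicle, had 153, 98.6, 113 and 92.2 CPM in control and 256, 194, 165 and 183 in Bmi1-deleted libraries. Every Bmi1-deleted library was higher, a log2 change of 0.80 (adjusted p 0.131, or 0.000947 with the block). Bmp1 and Sostdc1 also passed with the block and the fibroblast score together, at 1.12 and 0.95. The list of other antagonists, 8 of them tested, had a median change of 0.23.

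Cdkn1a, the p21 cell cycle inhibitor and a TGF-beta target in many cells, had 125, 112, 130 and 114 CPM in control and 155, 182, 155 and 189 in Bmi1-deleted libraries, again without overlap (log2 change 0.50, adjusted p 0.144, or 0.0268 with the block). Gdf15, a stress-induced ligand of the family, was at 0.21, 1.03, 0.43 and 2.04 CPM in control and 4.08, 2.29, 3.45 and 4.65 in Bmi1-deleted libraries, without overlap and at low counts (log2 change 1.95, adjusted p 0.493). Ccn1, a matricellular target, gave a change of 0.49 (adjusted p 0.0135 with the block). Runx3, a SMAD-interacting transcription factor, had 105, 112, 175 and 259 CPM and 76.0, 67.1, 137 and 179 (change −0.50, adjusted p 0.848, or 0.0138 with the block), and 0.23 with the fibroblast score as a term, or −0.53 with the block as well. The 18 tested regulators of SMADs had a median change of −0.01.

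By level per length, the highest of the other lists were Gdf11 (5.82 TPM) for ligands, Rgmb (86.7) for receptors, Crebbp (160) for SMAD regulators and Junb (554) for targets. Gdf11, a ligand, had 16.2, 13.1, 14.1 and 12.1 CPM in control and 16.0, 20.3, 23.7 and 19.5 in Bmi1-deleted libraries (log2 change 0.52, adjusted p 0.542). Rgmb, a BMP co-receptor, had 111, 100, 97.8 and 137 CPM and 118, 113, 109 and 108 (change 0.01). Junb, an immediate early transcription factor, had 609, 523, 572 and 495 CPM and 643, 617, 508 and 483 (change 0.03). Crebbp, a histone acetyltransferase and SMAD co-activator, had 417, 414, 558 and 511 CPM and 425, 420, 497 and 553 (change −0.0031, adjusted p 0.996).

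**Figure D5:**
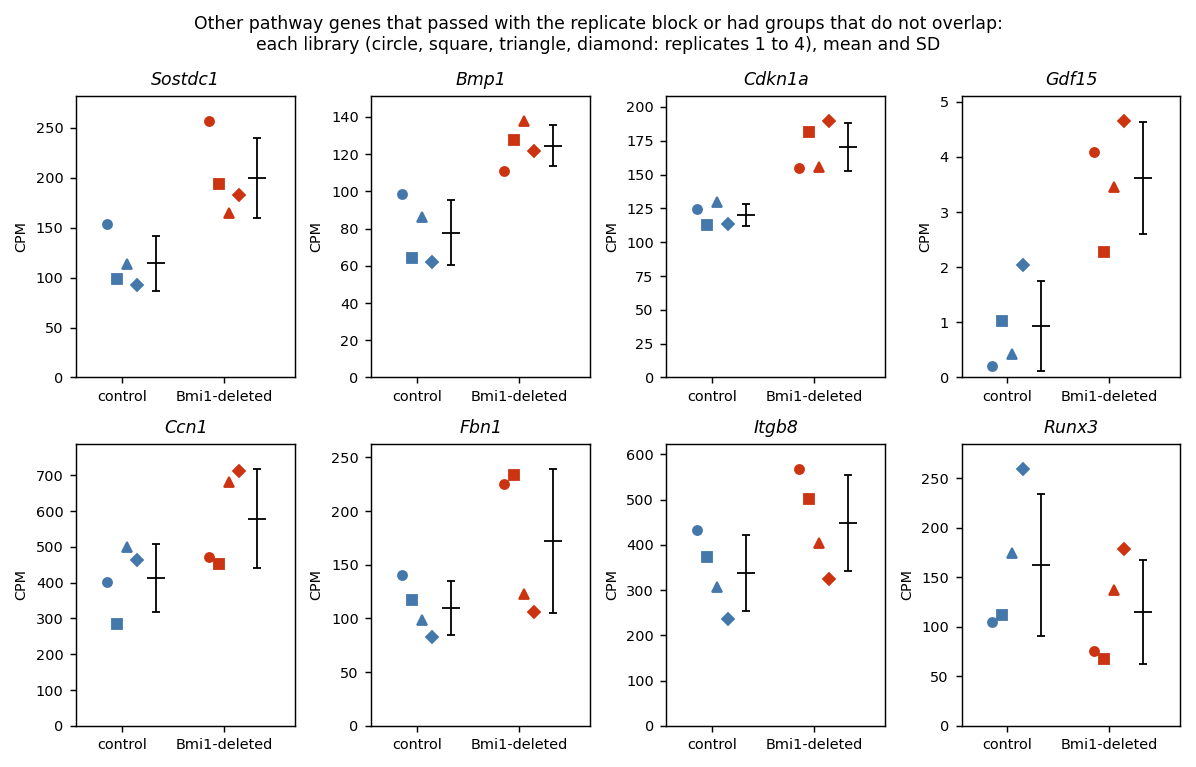
CPM by library (points) with the mean and SD of each group for other genes of the pathway that passed with the replicate block or whose groups did not overlap. Sostdc1, Bmp1, Cdkn1a and Gdf15 were higher in each Bmi1-deleted library than in each control library.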

How the data were processed

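The authors deposited estimated counts per Ensembl gene as whole numbers, for which the submitters' processing notes name Salmon 1.2.1 and build mm10, and a table of log2 values, the binary logarithm of TPM plus 1. Strand setting and annotation version are not given in the labels or file headers. Symbols and positions came from GENCODE M21 (GRCm38, the same build as mm10), with 54166 of 54418 identifiers named, and promoters from RefSeq.

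Libraries were grouped by genotype. Counts were filtered with filterByExpr, scaled by TMM and compared with edgeR 4.0.16 (quasi-likelihood test, robust, two-sided, R 4.3.3). A gene rose or fell at a Benjamini-Hochberg adjusted p under 0.05 over all 16011 genes tested, and the script was tested on simulated data. Unless another fit is named, adjusted p-values are from this test. Standard errors came from the F statistic, errors of levels are SDs over 4 libraries, and intervals and floors cover counting error only, as counts include PCR copies.

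The members and lists were chosen with earlier results of these data known. Values per library are given for genes that passed, genes whose groups did not overlap and the gene of highest control TPM in each role. Alternatives were DESeq2 1.42.0, its size factors, other filters, TPM with limma 3.58.1, a fibroblast score as covariate, each library left out and the replicate block. Fits of replicates 1 and 2 alone, of 3 and 4 alone, and of block and covariate together were chosen after seeing the data.

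Replicate numbers in the titles were checked as a pairing. After centring within genotype, the control and the Bmi1-deleted library of the same number correlated at 0.124 to 0.186 across genes in all 4 pairs. Libraries of replicates 1 and 2 also resembled one another across numbers, as did 3 and 4 (mean correlation 0.166, against −0.162 between these sets), and 4 of 8 libraries matched best with their own number. Pairing by number therefore cannot be told apart from a split into replicates 1 and 2 and replicates 3 and 4. The blocked value is printed, as an alternative fit, where it changes a call. No label gives a batch.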

Additional observations from a re-analysis of the deposited data

Results flagged for a closer look

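Of 84 groups of 4 libraries examined (42 genes in 2 genotypes), 4 held a library that stood apart from the other 3 by Dixon's ratio, and chance alone flags about 1 in 20 groups. Tgfb2 reached 25.6 CPM in Bmi1-deleted library 4, against 19.97 to 20.5 in the others (ratio 0.912). Smad9 reached 6.80 CPM in Bmi1-deleted library 4, against 0.298 to 0.890 in the others (ratio 0.909). Id3 was at 58.3 CPM in control library 2, the lowest, against 68.2 to 68.7 in the others (ratio 0.955). Chrd was at 2.83 CPM in control library 4, against 1.07 to 1.17 in the others (ratio 0.944).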

How the results depend on the processing

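For the 45 genes, the count that rose was 0 and became 1 with DESeq2, with the replicate block and in replicates 1 and 2 alone, 2 without the low-count filter (Ltbp4 and Tgfbr3), and 0 to 1 with each library left out in turn (1 without control library 1). The 1 gene was Tgfbr3, except in replicates 1 and 2 alone, where it was Tgfbi. For the other pathway genes the count that rose was 0 and became 3 with DESeq2, 6 without the filter, 6 with the replicate block, 2 in replicates 1 and 2 alone, 2 with the block and the fibroblast score, and 0 to 2 with each library left out (2 without control library 1), and the count that fell became 1 with the replicate block. The median log2 change of the 42 genes was 0.094 in replicates 1 and 2 alone and −0.11 in replicates 3 and 4 alone, and −0.05 to 0.02 with each library left out. Of 663 values of single genes under the alternatives other than the 3 fits chosen after seeing the data, 608 kept direction and call, 5 gained a call and 50 changed sign, and the cause was not tested. Counted apart, the sign changed for 5 of 42 genes in replicates 1 and 2 alone, 9 of 41 in replicates 3 and 4 alone, and 11 of 42 with the block and the fibroblast score, where 1, 0 and 0 genes passed. None of the values that changed sign had passed the test. The sign changed with the fibroblast score as a term for Inhba (−1.05), Bmp4 (−0.37), Ltbp2 (−0.79), Ltbp3 (−0.024), Tgfbr2 (−0.33), Acvr1 (0.056), Smad1 (−0.12), Smad5 (0.16), Smad9 (0.12), Smad4 (0.041), Smad7 (0.14), Ski (−0.013), Skil (0.050), Id2 (0.23), Tgfbi (−0.035) and Fst (−0.26), and with the replicate block for Id1 (0.0038). On the deposited log2 TPM, relative to a shift of all genes of −0.14, it changed for Tgfb1 (−0.27), Ltbp3 (−0.080), Smad4 (0.0090) and Smad6 (0.0028), and on rescaled TPM with a pseudocount of 0.1 for Tgfb1 (−0.20), Ltbp3 (−0.0087), Acvr2b (0.0054), Smad2 (0.067) and Smad4 (0.081). With each library left out in turn the range crossed 0 for Inhba (−0.61 to 0.70), Ltbp2 (−0.18 to 0.40), Ltbp3 (−0.11 to 0.091), Tgfbr2 (−0.090 to 0.32), Eng (−0.063 to 0.10), Acvr1 (−0.20 to 0.0058), Smad1 (−0.050 to 0.092), Smad7 (−0.22 to 0.058), Id1 (−0.13 to 0.11), Id2 (−0.16 to 0.068), Id3 (−0.23 to 0.075) and Bambi (−0.026 to 0.23). The replicate block changed no call of the 42 genes other than that of Tgfbr3. Genes near the floor of 3 counts, 0.298 to 0.340 CPM, were dropped by the low-count filter. Bmp5, Bmpr1b and Nog entered the fit without that filter, in which none of them passed.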
